A study of Mus musculus with 2 samples.

Results

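Dividing fetal mast cells were the cells of a mast cell gate in which transcripts of the cell cycle were counted at or above a set number. A barcode entered the gate with at least 3 unique molecular identifiers (UMIs, each counting 1 captured transcript) of Cma1, at least 5 of Hdc, 0 of Mrgprb1, 0 of Mrgprb2 and at most 2 of Gzmb. It was called dividing when the UMIs of Mki67, Top2a, Cdk1, Birc5, Ube2c, Nusap1, Tpx2 and Cenpf summed to 5 or more. Of 1935 gated cells, 75 (3.88%) met this rule. The sum was 0 or 1 in 1809 cells, which served as the non-dividing cells of the same gate, and it was 2 to 4 in the remaining 51, which entered neither side. The whole series held 8598 barcodes with a single litter's hashtag out of 10648.

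The cells came from fetal lungs of wild type C57BL/6J mice, whose mothers drank dexamethasone (DEX, a synthetic glucocorticoid) at 1.3 µg/ml or phosphate-buffered saline (PBS) from gestation day 12 until harvest at day 18. Live cells positive for the leukocyte antigen CD45 and for ST2, the receptor of interleukin-33, and negative for a panel of lineage antigens were sorted, and the lungs of a litter formed 1 pool, of 8 (DEX-1), 9 (DEX-2), 5 (PBS-1) and 8 fetuses (PBS-2). Each litter carried its own hashtag antibody, and all 4 litters were read together as 1 gene expression library of the 10x Genomics 5′ chemistry, so that the litter was the replicate (n = 2 per treatment) and the fetuses within it could not be told apart. The labels and the methods of the paper name 2 mothers per treatment, which was followed here. A figure legend of the paper instead counts 1 mother per group. The labels name the sorted cells ILC2s (group 2 innate lymphoid cells), while the gate picked cells by mast cell transcripts. Every value below is given in the order DEX-1, DEX-2, PBS-1, PBS-2 where 4 values stand together.

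Mast cells are tissue-resident immune cells that descend from blood-forming progenitors and mature where they settle. They store proteases, histamine and heparin in granules, release them together with lipid mediators and cytokines when IgE or other receptors are engaged, and depend on KIT, the receptor for stem cell factor, for survival and growth. A dividing cell copies its DNA in S phase, when nucleotide synthesis enzymes, replication factors and histones are made, and separates its chromosomes in mitosis, when spindle and kinetochore genes are most active.

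The mast cell identity of the 75 cells was checked against markers outside the gate. Cpa3, the mast cell carboxypeptidase, had a UMI in 74 of 75 cells, Kit in 74, and Tpsb2 (tryptase beta) and Gata2, a transcription factor of mast cell identity, in 70 each. Kit was not particular to mast cells here, with a UMI in 78.9% of the cells gated as ILC2s below, against 7.78% for Tpsb2. Of 9 mast cell markers that the gate did not use, the cells held a median of 6 and at least 3. The full list of 11 mast cell markers, which includes Cma1 and Hdc of the gate, took a median of 3.52% of a cell's UMIs (range 0.155 to 9.04). The median was 5.84% in non-dividing cells, and 9 of the 75 dividing cells lay under 1%. The same markers summed to 25509 to 35834 counts per 1000000 UMIs of a litter's cells of that kind (CPM) in dividing cells and to 50823 to 54748 CPM in non-dividing cells, without overlap. Much of these sums came from Cma1 and Hdc, which chose the cells. Their means were 13208 and 5270 CPM in dividing and 19134 and 9753 CPM in non-dividing cells.

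More dividing than non-dividing cells passed a fixed count of transcripts of other cell types, a count that deeper cells reach more easily. More than 10 UMIs of the markers of another class, or of the basophil protease Mcpt8, were counted in 27 of 75 dividing cells (36.0%), namely in 4, 12, 4 and 7 cells by litter, and in 139 of 1809 non-dividing cells (7.68%). Markers of ILC2s passed this limit in 14 dividing cells, of epithelium in 10, of endothelium in 5, of mesenchyme in 4, of T cells in 3 and of neutrophils in 1, while markers of B cells, NK cells, macrophages, eosinophils, erythroid cells and megakaryocytes passed it in 0. Per UMI the difference was not general. The epithelial markers stood at 382, 8970, 169 and 9989 CPM in dividing cells and at 10165, 6191, 7740 and 4110 CPM in non-dividing cells, the ILC2 markers at 68.9, 655, 107 and 388 against 267, 228, 221 and 229 CPM, both higher in 2 of 4 litters, and 1 dividing cell alone held 2517 UMIs of Sftpc, the surfactant gene of alveolar type II cells. Barcodes holding 2 cells of the same litter share a hashtag and were not removed, and the part of such barcodes in the results was not tested. Each main count is therefore also given without the 27 cells and their non-dividing counterparts, an alternative chosen after seeing the data.

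Dividing cells were deeper than the rest. Their median total was 16911 UMIs (range 1291 to 58985) and 4236 genes, against 6732 UMIs and 2377 genes in non-dividing cells, while mitochondrial transcripts took a median of 0.63% and 0.889%. Summed by litter, the dividing cells gave 188600, 685362, 243287 and 378732 UMIs from 9, 31, 15 and 20 cells, so that 1 litter, DEX-2, held the most. Since the rule counts raw UMIs, deeper cells reach it more easily, and shallow cells pass the mast cell gate only where Cma1 and Hdc take a larger share. Results are therefore also given for cells of matched totals, those within the middle range (25th to 75th percentile) of the totals of the dividing cells of their own litter, which left 5, 15, 7 and 10 dividing and 14, 80, 66 and 47 non-dividing cells. Within this range the dividing cells were still deeper, with medians of 24227, 21025, 15510 and 16495 UMIs against 18480, 14516, 12246 and 15707. Totals were thus limited to a range and not made equal, so a difference in depth remained.

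The sum that defined division ran from 5 to 120 UMIs in the 75 cells, with a median of 23. Just inside the limit lay 3 cells with a sum of 5, 3 with 6 and 1 with 7. Just outside it lay 9 cells with 4, 14 with 3 and 28 with 2. Per 10000 UMIs the summed genes reached a median of 3.64 at a sum of 5 and 3.51 at a sum of 4, so that the cells next to the limit were alike in this share. The body of the dividing cells lay well above it.

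The genes of the rule are described without a test, since they chose the cells. Mki67 (chromosome 7, 135689784 to 135716361, minus strand, GRCm38), which encodes the Ki-67 protein coating mitotic chromosomes, stood at 233, 166, 185 and 172 CPM in dividing cells and at a mean of 2.11 CPM in non-dividing cells. Top2a (chromosome 11, 98992943 to 99024189, minus strand), the topoisomerase that untangles replicated DNA, stood at 201, 187, 300 and 238 CPM. Birc5 (chromosome 11, 117849251 to 117855743, plus strand), the survivin subunit of the complex that corrects chromosome attachment, stood at 414, 339, 452 and 407 CPM and had a UMI in 71 of 75 cells. Ube2c, which hands ubiquitin to the anaphase-promoting complex, and Cdk1, the kinase that drives entry into mitosis, reached means of 395 and 163 CPM. Mki67 had a UMI in 68 of 75 cells (90.7%). In 213 barcodes rich in the B cell gene Cd79a, at a median of 3578 UMIs, Mki67 had a UMI in 2.82%, with up to 7. The own transcripts of these cells and free RNA cannot be told apart there. The litters overlapped in each of these genes except in Top2a, Cdk1 and Ube2c, where both PBS values lay above both DEX values, a separation that 33.5% of all genes tested showed.

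Of the genes that defined the mast cell gate, Cma1 (chymase 1; chromosome 14, 55941451 to 55944675, minus strand) stood at 9708, 11032, 16676 and 15417 CPM in dividing cells and at 17352, 19741, 18636 and 20807 CPM in non-dividing cells. Hdc (chromosome 2, 126593667 to 126619299, minus strand), the enzyme that makes histamine, stood at 6803, 4310, 6124 and 3842 CPM against 12490, 8874, 9578 and 8070 CPM. Every dividing cell held at least 3 UMIs of Cma1 and 9 of Hdc, with medians of 197 and 84 UMIs, above the medians of 116 and 61 in non-dividing cells. The counted UMIs of both genes per cell were thus not fewer in dividing cells, although they took a smaller share of the UMIs. Both genes chose the cells and the rule favours deeper cells, so these counts cannot compare the transcripts that a cell contained.

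Promoters of cell cycle genes are known to carry the cell cycle homology region (CHR, letters TTTGAA), bound by the DREAM and MuvB complexes, and CCAAT boxes, bound by NF-Y. The 150 bases before the RefSeq start (build GRCm38.p6) are shown for 4 genes of division, among them Top2a and Mki67 of the rule. They are also shown for Cma1, a mast cell gene of the gate. Capitals mark CHR and CCAAT letters on either strand (TTCAAA and ATTGG are the same letters read on the other strand), and the sequences are given 5′ to 3′ on the strand of the gene.
Top2a, chr11:99024190-99024339, minus strand: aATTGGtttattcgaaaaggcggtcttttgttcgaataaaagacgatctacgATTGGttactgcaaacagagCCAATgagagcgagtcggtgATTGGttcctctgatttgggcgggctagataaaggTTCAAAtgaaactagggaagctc
Mki67, chr7:135716380-135716529, minus strand: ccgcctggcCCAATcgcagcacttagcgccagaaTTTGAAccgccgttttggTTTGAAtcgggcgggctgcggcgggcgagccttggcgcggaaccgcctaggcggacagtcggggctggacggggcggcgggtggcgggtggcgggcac
Kif11, chr19:37376232-37376381, plus strand: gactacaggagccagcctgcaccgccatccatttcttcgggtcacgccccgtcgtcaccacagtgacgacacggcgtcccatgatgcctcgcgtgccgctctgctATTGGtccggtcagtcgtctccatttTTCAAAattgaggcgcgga
Hmmr, chr11:40733438-40733587, minus strand: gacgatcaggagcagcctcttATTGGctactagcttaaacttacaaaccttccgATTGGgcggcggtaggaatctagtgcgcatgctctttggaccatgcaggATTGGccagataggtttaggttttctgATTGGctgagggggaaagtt
Cma1, chr14:55944676-55944825, minus strand: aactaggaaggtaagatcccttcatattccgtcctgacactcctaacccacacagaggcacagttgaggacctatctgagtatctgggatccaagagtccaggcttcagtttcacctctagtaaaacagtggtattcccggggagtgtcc

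In these windows Top2a held 1 CHR and 4 CCAAT matches, Mki67 2 and 1, and the spindle motor gene Kif11 1 and 1. Hmmr, a spindle-associated hyaluronan receptor, held 0 and 4. Cma1 held neither. The windows shown do not stand for all genes of the rule or the gate. Birc5 and Nusap1 of the rule also held neither, while Hdc of the gate held 1 CHR and 0 CCAAT matches. Of the 8 cycle genes of the rule, 7 had a window. A CHR was in 4 of these 7 windows (57.1%) and a CCAAT box in 5 (71.4%). Of 51 windows of the 46 mitosis genes with an entry, out of 55 listed, 17 held a CHR (33.3%) and 40 a CCAAT box (78.4%), against 9.07% and 24.5% of all 32851 promoter windows. The 47 windows of 39 replication genes held a CHR in 8.51% and a CCAAT box in 55.3%. An E2F motif (TTTGGCGC or TTTCGCGC, both strands) was in 4 of them (8.51%), against 0.423% of all windows. The 12 windows of granule protease genes held a CCAAT box in 0 and a CHR in 3 (25.0%, above the 9.07% of all windows). The 33 windows of mast cell receptor genes held them in 5 (15.2%) and 1 (3.03%). A match describes the letters and is not evidence of a bound site.

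The dividing cells held transcripts of replication and of mitosis genes in differing proportions. Genes of replication (53 listed, among them the MCM helicase and Rrm2) took a median of 43.95 UMIs per 10000 in a dividing cell (range 2.461 to 104.1), and genes of mitosis (55 listed) a median of 58.49 (15.69 to 158). The non-dividing medians were 8.636 and 7.648. At least 10 UMIs of both lists were counted in 71 of 75 cells. Replication genes outnumbered mitosis genes in 26 cells, namely in 4, 14, 4 and 4 by litter, and mitosis genes led in 49, namely in 5, 17, 11 and 16. Transcripts of Ccnb1, Cdc20 or Plk1, which act at entry into and exit from mitosis, were present in 53 cells. Replication-dependent histone genes, made in S phase, had at least 10 UMIs in 63 cells, with a median of 19.01 per 10000. These lists lie close to the rule and are given as a description, which does not place a cell in a phase.

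**Figure D1:**
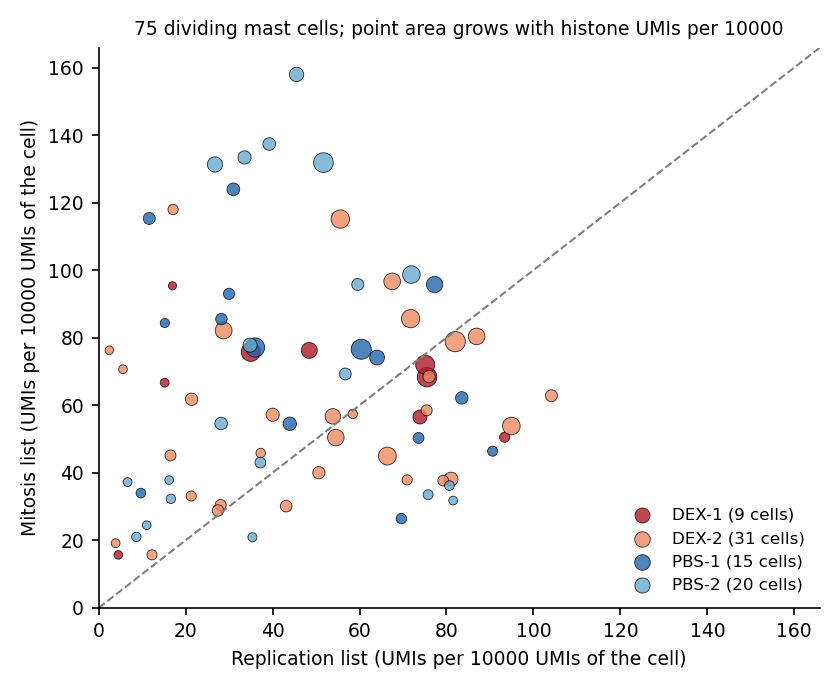
UMIs of mitosis genes (y axis) against UMIs of replication genes (x axis), each per 10000 UMIs of the cell, for the 75 dividing mast cells coloured by litter. Point area follows the histone UMIs per 10000 and the dashed line marks equal values. Of the cells, 49 lie above the line and 26 below it, and every litter has cells on both sides.

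The 26 cells led by replication genes and the 49 led by mitosis genes were also compared gene by gene. E2f1, the transcription factor of the G1/S transition, was at 72.0 CPM in the former and 9.04 CPM in the latter, with a UMI in 80.8% and 14.3% of cells. Ccne1, the cyclin of S phase entry, was at 36.0 and 12.4 CPM. Pclaf, the PCNA-associated factor, was at 802 and 448 CPM. Ube2c, a gene of the rule, ran the other way, at 132 and 543 CPM. Among mast cell genes, Kit was at 546 and 574 CPM, Gata2 at 432 and 474 CPM and Cma1 at 11611 and 13779 CPM. Mitf was at 47.4 and 85.9 CPM, and Ms4a2, the beta chain of the IgE receptor, at 76.9 and 50.9 CPM. Mcpt4, the chymase of connective tissue mast cells, was at 257 CPM in the former, where 10 of 26 cells had a UMI, and at 1678 CPM in the latter, where 25 of 49 did. The cells were split on these values themselves and were pooled over litters, so no test was made.

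The share of gated mast cells that were dividing was 1.84% in DEX-1 (9 of 489, exact 95% binomial interval 0.845 to 3.46), 6.1% in DEX-2 (31 of 508, 4.18 to 8.55), 3.55% in PBS-1 (15 of 422, 2.0 to 5.79) and 3.88% in PBS-2 (20 of 516, 2.38 to 5.92). The DEX litters lay on either side of both PBS litters. The means were 3.97% ± 3.01 with DEX and 3.72% ± 0.227 with PBS (SD, n = 2), a difference of 0.256 percentage points (two-sided exact permutation test, p = 1, where 2 against 2 litters allow no p below 1 in 3). Without DEX-2 the difference was -1.87 points and without DEX-1 it was 2.39 points, so its direction rested on which DEX litter was kept. It was -0.163 points without cells rich in markers of another class, where 48 of 1760 cells (2.73%) were dividing, and -0.0607 points after each cell was thinned to 4000 UMIs (45 of 1448, 3.11%). For thinning, cells with fewer than 4000 UMIs were left out and the mast cell gate stayed on raw counts.

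Division was set beside that of the other gates of the same litters, with the cycle rule unchanged. Of mast cells with at least 3 UMIs of Gzmb and neither Mrgprb1 nor Mrgprb2, 124 of 384 (32.3%) were dividing. Cells were gated as ILC2s with at least 2 UMIs of Gata3 and 1 of Il7r, and at most 1 of Hdc and 2 of Cma1. Of these 382 of 1439 (26.5%) were dividing. Of cells with Mrgprb1, a receptor gene of connective tissue type mast cells, 8 of 185 (4.32%) were dividing, and of those with Mrgprb2 alone 11 of 400 (2.75%). The Gzmb-low cells described here lay below the Gzmb-high cells by 28.6 ± 5.56 points and below the ILC2s by 22.4 ± 3.35 points (mean ± SD over 4 litters), lower in 4 of 4 litters each. They lay 1.37 ± 0.801 points above the cells with Mrgprb2 alone, of which only 0, 6, 3 and 2 by litter were dividing, higher in 4 of 4 litters. For each of these 3 the two-sided exact permutation test over litter pairs gave p = 0.125, the smallest that 4 pairs allow, and 0.167 after Benjamini-Hochberg adjustment over the 4 gates. Against the cells with Mrgprb1 the difference was -0.216 ± 1.5 points (exact permutation p = 0.875). Cells were also thinned to 4000 UMIs for the cycle rule, while the gates stayed on raw counts. This kept 1448 of 1935 Gzmb-low and 378 of 384 Gzmb-high cells. The part of depth in passing a gate was not tested. Among the thinned cells the differences were -17.5, -19.8, 1.68 and -0.0917 points. The first 3 kept their sign in 4 of 4 litters, while against the cells with Mrgprb1 the share was higher in 1 of 4 litters before thinning and in 3 of 4 after it (-0.0917 ± 1.37 points). After thinning 4 of 252 cells with Mrgprb2 alone were dividing, namely 0, 2, 1 and 1 by litter.

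**Figure D2:**
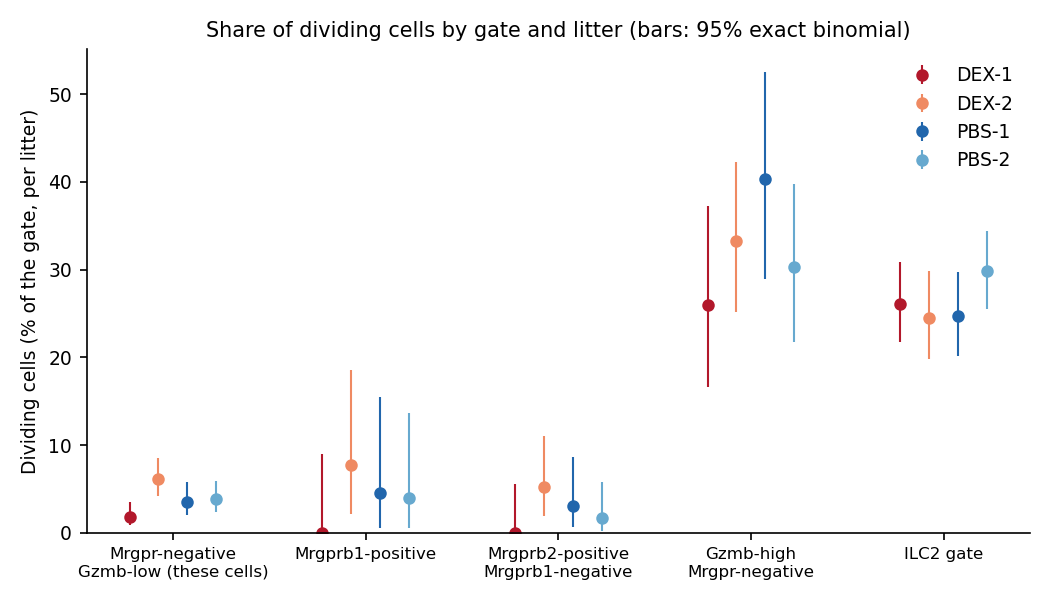
Share of dividing cells (y axis, percent) by gate (x axis) and litter. Points are litters and bars are 95% exact binomial intervals, which cover counting error alone. The Mrgpr-negative Gzmb-low cells sit between 1.84% and 6.1%, below the Gzmb-high mast cells and the ILC2s in all 4 litters.

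Dividing and non-dividing mast cells were then compared gene by gene within litters. UMIs were summed by litter and state and tested with the quasi-likelihood test of edgeR with litter as a block, and the 13 genes of the rule were left out. Of 9436 genes tested, 2012 (21.3%) passed a Benjamini-Hochberg adjusted p of 0.05, of which 1134 (12.0%) were higher and 878 (9.30%) lower in dividing cells. Outside the cell cycle lists 998 were higher and 873 lower of 9274 tested (median log2 fold change -0.03). The count was 1737 without cells rich in markers of another class and 1277 without DEX-2. It was 314 of 4176 tested among cells of matched totals (225 higher, 89 lower), where fewer cells were left.

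Cell cycle genes were higher nearly throughout, which the rule makes likely, and they are described without a test. Of 52 mitosis genes measured, 50 lay past the threshold upward (median log2 fold change 4.79), and of 50 replication genes 47 did (median 2.60). Of 16 replication-dependent histones 14 were higher (median 3.37), and of 16 genes of the cytoskeleton and chromatin that follow the cycle 15 were (median 1.99). Pclaf, outside these lists (chromosome 9, 65890237 to 65903266, plus strand), which binds the sliding clamp PCNA, stood at 668, 575, 674 and 533 CPM against 2.85, 4.56, 1.78 and 2.91 CPM. Ccna2 (chromosome 3, 36564865 to 36572150, minus strand), the cyclin of S phase and G2, stood at 138, 150, 148 and 185 CPM against 0.268 to 0.713 CPM and had a UMI in 61 of 75 dividing and 6 of 1809 non-dividing cells. Rrm2 (chromosome 12, 24708241 to 24714146, plus strand), the subunit of ribonucleotide reductase that makes DNA precursors, stood at 212, 355, 366 and 198 CPM against 2.95 to 5.53 CPM. The groups were far apart in all 4 litters for each of these genes. Kif23, a motor protein of the central spindle, was the exception among mitosis genes, at 106, 80.2, 82.2 and 100 CPM in dividing and 127, 108, 123 and 150 CPM in non-dividing cells.

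Regulators of the cycle moved in both directions, and as they neighbour the rule they too are described. Of 28 cyclins, kinases and inhibitors measured, 10 lay past the threshold upward and 4 downward (median log2 fold change 0.63). Cdk4, the kinase of G1, was at 435, 411, 460 and 354 CPM against 151, 194, 149 and 164 CPM. Its partner Ccnd2, cyclin D2, was lower, at 31.8, 111, 28.8 and 97.7 CPM against 145 to 178 CPM. The E2F family repressors E2f7 and E2f8 had log2 fold changes of 4.93 and 4.18. Mybl2, the MYB protein of the complex that drives mitotic genes, had 5.49, and Cdkn2c, an inhibitor of CDK4, 4.28. Genes that restrain division were lower in part, with Btg1 at -1.01, Tob1 at -0.83 and Cdkn1a at -0.43 on the log2 scale. Btg2 was higher, at 239, 181, 94.5 and 343 CPM against 82.4 to 105 CPM, with overlap in PBS-1. Myc, the growth factor-induced transcription factor, was at 31.8, 144, 12.3 and 37.0 CPM against 17.1 to 34.9 CPM.

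Genes of growth and biosynthesis rose with division. Of 30 tested, 22 were higher and 2 lower, beside 12.0% and 9.30% of all genes (median log2 fold change 0.93). Phgdh (chromosome 3, 98313170 to 98339990, minus strand), the entry enzyme of serine synthesis, stood at 127, 188, 144 and 71.3 CPM in dividing cells and at 15.4, 27.9, 14.3 and 18.9 CPM in non-dividing cells. All 4 litters were far apart (log2 fold change 2.73 ± 0.23 SE, edgeR adjusted p = 2.37e-05), and a UMI was present in 47 of 75 against 149 of 1809 cells (8.24%). The Cd79a-rich barcodes had one in 32.4%, with up to 20 UMIs, above the non-dividing mast cells. Own transcripts and free RNA cannot be told apart there. Psat1, the next enzyme of the pathway, was at 74.2, 123, 90.4 and 73.9 CPM against 14.5 to 21.7 CPM (2.35 ± 0.20, adjusted p = 2.64e-05). Mthfd2, which carries the folate-bound carbon onward in mitochondria, rose by 2.59 ± 0.39 (adjusted p = 0.000908). Ran, the GTPase of nuclear transport and spindle assembly, stood at 785, 1204, 1303 and 784 CPM against 237 to 336 CPM (1.81 ± 0.13, adjusted p = 8.06e-06). Its partner Ranbp1 and the guanine nucleotide enzyme Impdh2 rose by 1.41 ± 0.15 and 1.57 ± 0.18. The amino acid transporter Slc7a5 fell by 0.75, from 375 to 460 CPM in non-dividing to 214 to 283 CPM in dividing cells. Without cells rich in markers of another class 25 genes were higher and 1 lower. Among cells of matched totals 8 of 23 were higher and 0 lower, with Phgdh at 1.26 (adjusted p = 0.0196), Psat1 at 1.39 (0.0424) and Ran at 1.47 (0.000713).

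Respiration genes rose more modestly and glycolysis genes were mixed. Of 24 genes of oxidative phosphorylation, 14 were higher and 0 lower (median log2 fold change 0.49), beside 12.0% and 9.30% of all genes. Cycs, cytochrome c, stood at 286, 422, 374 and 185 CPM against 101 to 126 CPM (1.44 ± 0.18, edgeR adjusted p = 0.000304). Atp5g3 and Ndufa4, subunits of ATP synthase and of the respiratory chain, rose by 0.73 ± 0.09 and 0.80 ± 0.10. Of 16 glycolysis genes 6 were higher and 2 lower (median 0.16), beside 12.0% higher and 9.30% lower of all genes. Pkm, pyruvate kinase, stood at 403, 585, 728 and 441 CPM against a mean of 278 ± 21.3 CPM (0.91 ± 0.14, adjusted p = 0.00095), and Pgk1 rose by 0.99 ± 0.16. The glucose transporters Slc2a1 and Slc2a3 were the 2 lower ones, with Slc2a1 at 42.4, 48.1, 28.8 and 34.3 CPM against 57.4 to 77.4 CPM (-0.85 ± 0.19, adjusted p = 0.0108). Without PBS-2 Slc2a1 was at -0.73 (adjusted p = 0.0516), and Slc2a3 lost its call without DEX-2 (-1.05, adjusted p = 0.225) or without PBS-2 (-1.20, adjusted p = 0.111). Among cells of matched totals 3 of 23 respiration genes and 1 of 14 glycolysis genes were called, all higher.

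**Figure D3:**
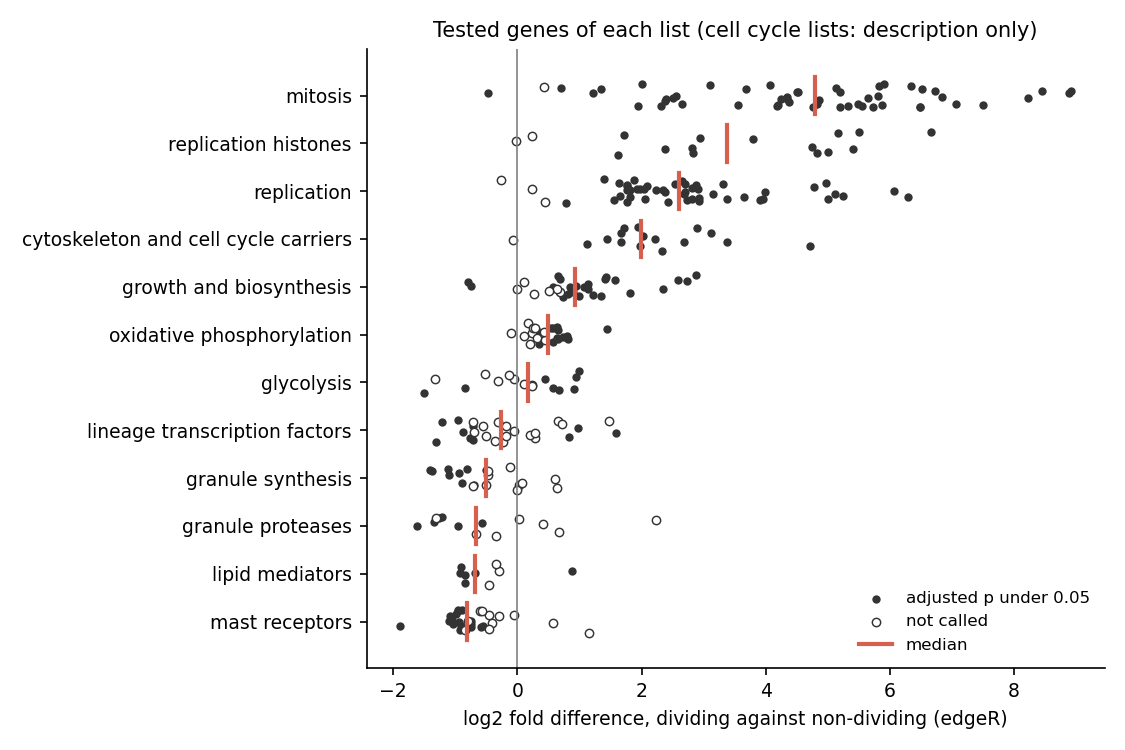
Log2 fold change of dividing over non-dividing mast cells (x axis) for the tested genes of 12 gene lists (y axis). Each point is a gene, filled where the edgeR adjusted p was under 0.05, and bars are list medians, which run from 4.79 for mitosis genes to -0.81 for mast cell receptors.

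Genes of the mast cell granule took a smaller share of transcripts in dividing cells. Of 13 granule proteases 6 were lower and 0 higher (median log2 fold change -0.67), and of 19 genes of granule synthesis 9 were lower and 0 higher (median -0.50), beside 9.30% lower of all genes. Tpsb2 (chromosome 17, 25366305 to 25369098, plus strand) stood at 3648, 3719, 4632 and 5397 CPM in dividing cells and at 9707, 11255, 10440 and 12100 CPM in non-dividing cells, without overlap (-1.35 ± 0.09, edgeR adjusted p = 4e-06). Counted per cell, however, the mean was 84.0 UMIs in dividing and 80.9 in non-dividing cells. The other tryptase, Tpsab1, and the lysosomal protease Ctsd fell by 1.27 ± 0.17 and 1.22 ± 0.11 on the log2 scale, with means of 7.17 against 6.74 and 5.20 against 4.61 UMIs per cell. Mcpt2, a mucosal chymase, stood at 217, 670, 132 and 784 CPM against 902 to 1552 CPM (-1.61 ± 0.27, adjusted p = 0.00168). Cpa3 and Mcpt4 fell by 0.57 and 0.95. Near-identical copies of tryptase and chymase genes can share reads, so the split between them is uncertain.

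Among synthesis genes, Tph1, the enzyme of serotonin production, stood at 398, 686, 654 and 885 CPM against 1122, 1454, 1277 and 1659 CPM (-1.11 ± 0.11, edgeR adjusted p = 6.13e-05). Hs3st1, a heparan sulfate sulfotransferase, stood at 737, 779, 756 and 824 CPM against 1515 to 1846 CPM (-1.12 ± 0.08, adjusted p = 1.2e-05). Slc18a2, the transporter that loads histamine and serotonin into vesicles, was at 122, 65.7, 152 and 84.5 CPM against 250 to 270 CPM (-1.40 ± 0.19), and Srgn, the granule proteoglycan core, fell by 0.70. In each of these genes the groups did not overlap. Among cells of matched totals 3 of 12 proteases and 2 of 14 synthesis genes were called lower. There Tpsb2 was at -0.52 (adjusted p = 0.0231) and Ctsd at -1.22 (adjusted p = 0.00116), while Tpsab1 was at -0.07, Tph1 at -0.34 and Hs3st1 at -0.33, not called. Without cells rich in markers of another class, 7 proteases and 7 synthesis genes were lower and 0 higher.

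The lipid mediator genes were lower in 5 of 9 and higher in 1 (median -0.69), beside 9.30% and 12.0% of all genes. Alox5ap, which presents arachidonic acid for leukotriene synthesis, stood at 1580, 1302, 1574 and 1484 CPM against 2494 to 2713 CPM (-0.84 ± 0.08, edgeR adjusted p = 3.75e-05), with 28.9 and 19.5 UMIs per cell. Alox5 and Hpgds, the prostaglandin D synthase, fell by 0.92 ± 0.13 and 0.91 ± 0.13. Lta4h, which turns the unstable leukotriene intermediate into its B form, rose, at 84.8, 118, 111 and 81.9 CPM against 49.2 to 56.1 CPM (0.88 ± 0.18, adjusted p = 0.00517). Ptgs1 fell by 0.69 at an adjusted p of 0.0319, a call lost without DEX-2 (-0.70, 0.115), without PBS-1 (-0.55, 0.0994), by DESeq2 (-0.70, 0.0591) and without cells rich in markers of another class (-0.24, 0.575). Among cells of matched totals 0 of 7 genes were called, with Alox5ap at -0.12 and Lta4h at 0.60.

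Receptors and signalling genes of mast cells were lower as a list, with 19 of 30 lower and 0 higher (median log2 fold change -0.81). Of all genes 9.30% were lower and 12.0% higher. Kit (chromosome 5, 75574916 to 75656722, plus strand) stood at 636, 479, 469 and 739 CPM in dividing and 1104, 1175, 1110 and 1397 CPM in non-dividing cells (-1.08 ± 0.11, edgeR adjusted p = 5.31e-05). No dividing value reached a non-dividing one, although the mean per cell was 11.4 against 8.89 UMIs. Il1rl1, which encodes ST2 and was the antigen of the sort, stood at 339, 239, 296 and 325 CPM against 490 to 638 CPM (-0.91 ± 0.12). Fcer1g, the shared signalling chain of the IgE receptor, fell by 0.75 ± 0.10, and Lyn, Tyrobp and Il4ra, which signal for immune receptors and interleukin-4, by 0.90, 0.96 and 0.92. The chains that make the receptor specific for IgE did not pass, with Ms4a2 at -0.57 (adjusted p = 0.0815) and Fcer1a at -0.46 (0.424), and neither did the kinases Syk (-0.84, 0.128) and Btk (-0.60, 0.0549). Without cells rich in markers of another class the list held 17 lower genes of 29, beside 709 of 8510 among all genes. Among cells of matched totals it held 2 of 23, beside 89 of 4176, with Kit at -0.76 (adjusted p = 0.0757).

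**Figure D4:**
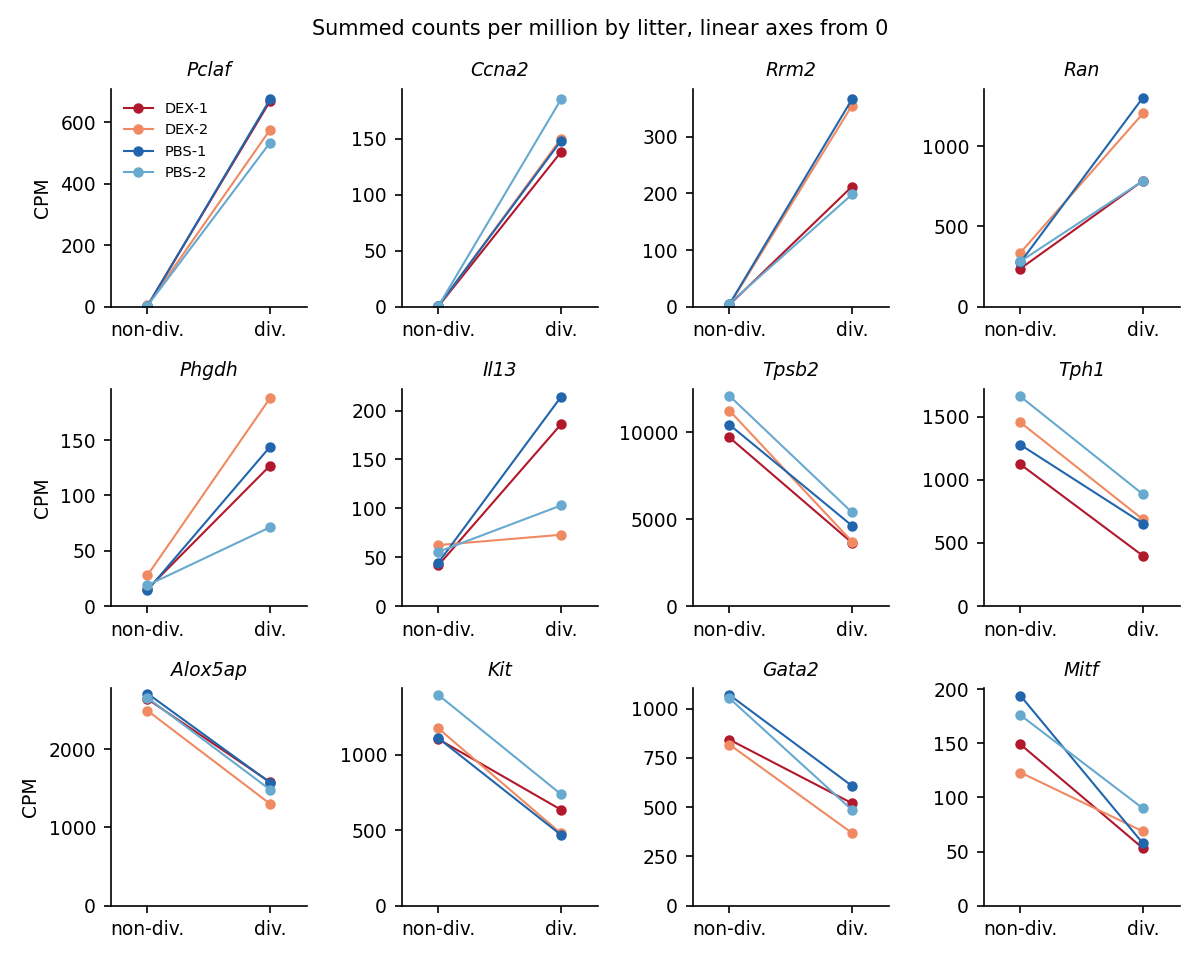
CPM of 12 genes (y axis, linear from 0) in non-dividing and dividing mast cells, with a line for each of the 4 litters. Pclaf, Ccna2, Rrm2, Ran, Phgdh and Il13 are higher in dividing cells of every litter, and Tpsb2, Tph1, Alox5ap, Kit, Gata2 and Mitf are lower in every litter.

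Among lineage transcription factors 7 of 26 were lower and 3 higher (median -0.27), beside 9.30% and 12.0% of all genes, so that the share of higher ones was near that of all genes. Gata2 (chromosome 6, 88193891 to 88207032, plus strand) stood at 520, 369, 608 and 486 CPM against 843, 818, 1070 and 1053 CPM (-0.96 ± 0.11, edgeR adjusted p = 0.000122) and was still lower among cells of matched totals (-0.53, adjusted p = 0.0467). Mitf, which drives granule and Kit expression, stood at 53.0, 68.6, 57.5 and 89.8 CPM against 123 to 194 CPM (-1.21 ± 0.19, adjusted p = 0.0012), and at -0.93 (adjusted p = 0.17) among matched cells. Cebpb and Stat5b fell by 0.87 ± 0.10 and 1.31 ± 0.27. Erg, Lmo4 and Nfe2, transcription regulators of blood cell lineages, rose by 0.98, 0.83 and 1.58, but Erg lost its call without DEX-1 (0.80, adjusted p = 0.0831) or without PBS-2 (0.90, adjusted p = 0.0755). Gata1, Runx1, Myb and Cebpa lay at -0.19, 0.20, 0.29 and 0.65 and did not pass.

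Genes of progenitors and basophils gave no common direction, with 2 of 10 higher and 3 lower, beside 12.0% and 9.30% of all genes. Cd34, a surface glycoprotein of progenitors and of mast cells, was lower at 371, 274, 411 and 415 CPM against 604 to 749 CPM (-0.95 ± 0.10, edgeR adjusted p = 0.00011). Mpo, the peroxidase of granulocyte and monocyte progenitors, was at 297, 705, 275 and 0 CPM against 6.26, 0, 0 and 4.95 CPM (adjusted p = 0.00249). It lay in 8 of 75 dividing and 5 of 1809 non-dividing cells, and 1 cell held 46.2% of its 606 UMIs. In PBS-2 it was not seen in dividing cells, where 3 counts would be 7.92 CPM. Sox4, a transcription factor of early progenitors, rose at 74.2, 43.8, 24.7 and 58.1 CPM against 12.1 to 24.7 CPM (1.39 ± 0.28, adjusted p = 0.00586), and without cells rich in markers of another class it was at 1.25 (adjusted p = 0.068) and after thinning to 4000 UMIs at 0.09 (0.964). Mcpt8, the basophil protease, was at 74.2, 24.8, 510 and 256 CPM against 18.2 to 55.6 CPM and did not pass (adjusted p = 0.0604), but it was called without DEX-2 (3.23, adjusted p = 0.00228). Without cells rich in markers of another class, a limit that Mcpt8 itself helped to set, it was at 0.57 and not called, and 1 dividing cell held 38.9% of its UMIs.

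Of 17 cytokine and chemokine genes 1 was higher and 3 lower, beside 12.0% and 9.30% of all genes. Il13 (chromosome 11, 53631324 to 53634702, minus strand), the type 2 cytokine, stood at 186, 73.0, 214 and 103 CPM in dividing cells and at 41.9, 62.5, 44.6 and 55.6 CPM in non-dividing cells, higher in 4 of 4 litters (1.34 ± 0.31, edgeR adjusted p = 0.0119). A UMI was present in 27 of 75 (36.0%) against 247 of 1809 cells (13.7%), and in 0.939% of Cd79a-rich barcodes. ILC2s carry this transcript too, in 34.1% of gated cells, and ILC2 markers were rich in 14 dividing mast cells. Without cells rich in markers of another class the change was 1.98 (adjusted p = 6.45e-06), among cells of matched totals it was 2.12 (0.0211), and without PBS-1 it was 0.99 and not called (0.0679). Il4 fell by 0.57 ± 0.12, at 232 to 309 CPM against 374 to 416 CPM. Tnf fell by 1.24 ± 0.31 (adjusted p = 0.0162), lost without DEX-2 (-1.03, 0.0962) or without PBS-2 (-1.10, 0.0659). Il1b was counted in 1 dividing cell with 6 UMIs, against 29.9 to 80.6 CPM in non-dividing cells. Ccl4 was at 233, 233, 2051 and 137 CPM, with PBS-1 far above the rest, and did not pass.

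Immediate early genes, which respond within minutes to stimuli and to tissue digestion, were lower in 8 of 19 and higher in 1 (median -0.33), beside 9.30% and 12.0% of all genes. Egr1 stood at 774, 962, 1484 and 1302 CPM against 1689 to 2264 CPM (-0.88 ± 0.12, edgeR adjusted p = 0.00047), and Fos and Dusp1 fell by 0.78 and 0.88. Egr1 and Dusp1 were lower among cells of matched totals also, at -0.70 (adjusted p = 0.0322) and -0.71 (0.00555). Of 23 genes of the glucocorticoid response 6 were lower and 1 higher (median -0.47), beside the same shares of all genes. The higher one was Fkbp4, a cochaperone of steroid receptors (0.97 ± 0.23, adjusted p = 0.0126), whose call was lost without DEX-2 (0.82, 0.0757) or PBS-1 (0.76, 0.0758). Fkbp5 and Tsc22d3 were at -0.47 and -0.48 and did not pass.

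Outside the cell cycle lists, 9 of the 10 genes with the highest fold change were genes of replication or chromosome separation (Pclaf, Esco2, Fbxo5, Pimreg, Neil3, Kif15, Shcbp1, Kif4 and Spc24, log2 fold changes of 5.87 to 7.58). The tenth was Gm20628, at 159, 43.8, 8.22 and 15.8 CPM against 0.582 to 0.854 CPM, seen in 21 of 75 and 10 of 1809 cells. Among the 10 lowest, 3 were genes of airway club cells. Cbr2 stood at 5.30, 4.38, 8.22 and 2.64 CPM in dividing cells and at 94.2, 176, 287 and 146 CPM in non-dividing cells (-5.21 ± 0.27, edgeR adjusted p = 9.04e-07), and Scgb1a1 and Scgb3a2, which encode secreted club cell proteins, were at -5.03 and -4.85. The share of cells with a UMI ran the other way, at 9.33% of dividing and 3.76% of non-dividing cells for Cbr2, 12.0% and 5.25% for Scgb1a1 and 6.67% and 2.99% for Scgb3a2, so that few non-dividing cells carried the higher CPM. The alveolar gene Sftpc had a UMI in 78.7% of dividing and 71.3% of non-dividing cells, and the part of free or adhering epithelial RNA was not tested. The others were Il1b, the sulfotransferase Hs3st3a1 (-3.37), Tdrd5 (21.2, 24.8, 28.8 and 13.2 CPM against 118 to 161 CPM, -2.61 ± 0.21), the transglutaminase subunit F13a1 (-2.24), the neuropeptide Nmb (-2.22), Olfr1033 (-2.22) and Gm29291 (-2.20). Tdrd5 was lower among cells of matched totals as well (-1.84, adjusted p = 0.00555).

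The comparison for which the study was designed, DEX against PBS, called 0 of 4586 genes (0%) in dividing mast cells by edgeR, with 199 at an unadjusted p under 0.05, 3 by DESeq2 and groups that did not overlap in 1536 genes (33.5%). The litters held 9 and 31 cells against 15 and 20, and the count depended on them, at 0 when DEX-2 was left out, 78 for DEX-1, 94 for PBS-2 and 109 for PBS-1, each with 1 litter left in a group.

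Targets of the glucocorticoid receptor gave no common direction. Fkbp5, a feedback inhibitor of the receptor, was at 31.8 and 45.2 CPM with DEX and 37.0 and 42.2 CPM with PBS (log2 fold change 0.01 ± 0.40), Tsc22d3 (GILZ) at 101 and 117 against 90.4 and 124 CPM (0.01 ± 0.30), and Per1, a clock gene with receptor sites, at 63.6 and 64.2 against 45.2 and 50.2 CPM (0.40 ± 0.34). The groups overlapped in Fkbp5 and Tsc22d3. Sgk1, a kinase induced by glucocorticoids, was at 10.6 and 32.1 against 82.2 and 127 CPM (-2.07 ± 0.49, edgeR adjusted p = 0.802), and Zbtb16, with 3, 7, 1 and 4 UMIs, was under the filter. Of 19 tested genes of the response 11 were higher with DEX and 8 lower (median 0.01), none called.

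Mast cell genes gave no call either. Kit was at 636 and 479 CPM with DEX and 469 and 739 CPM with PBS (-0.15 ± 0.29), Gata2 at 520 and 369 against 608 and 486 CPM (-0.32 ± 0.25) and Mitf at 53.0 and 68.6 against 57.5 and 89.8 CPM (-0.27 ± 0.37). The values of both groups overlapped in each. Tpsb2 was at 3648 and 3719 against 4632 and 5397 CPM (-0.46 ± 0.14, edgeR adjusted p = 0.999). Of 28 growth genes 25 were higher with DEX (median 0.42), and of 13 cytokine genes 11 were lower (median -1.19), beside a median of 0.00 over all genes, but 0 of either list were called. Odc1, the entry enzyme of polyamine synthesis, was at 180 and 140 against 53.4 and 37.0 CPM (1.81 ± 0.33), and Isg15, an interferon-induced gene, at 15.9 and 19.0 against 74.0 and 79.2 CPM (-2.08 ± 0.39), both with an edgeR adjusted p of 0.551. Among the genes with the smallest p-values were Kdr, Emcn and Gpihbp1, genes of endothelium, with Kdr at 0 and 1.46 against 49.3 and 39.6 CPM. Endothelial markers together were at 31.8 and 42.3 CPM with DEX and 119 and 240 CPM with PBS in the same cells, and their part in these values was not tested.

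Whether DEX acted differently in dividing and non-dividing cells was tested as an interaction. It was called by edgeR for 6 of 10431 genes (0.0575%), with 340 at an unadjusted p under 0.05, and the difference was positive in 2 (0.0192%) and negative in 4 (0.0383%). Mest, an imprinted gene of fetal tissue, was at 63.6, 64.2, 316 and 726 CPM in dividing and 51.8, 78.4, 22.8 and 67.5 CPM in non-dividing cells. Ramp2, a receptor component of endothelium, was at 5.30, 42.3, 169 and 737 CPM against 36.7, 38.1, 17.8 and 47.2 CPM, and Pltp and Sparcl1 ran the same way. The high values were those of the dividing cells of PBS litters, where the endothelial markers were also highest. Without cells rich in markers of another class these 4 genes were not called, with Mest at -0.02 and Ramp2 at 0.09, but Pltp at -7.06 and Sparcl1 at -3.87. Stfa1 and S100a8, genes of neutrophils, were counted nearly only in DEX-2 dividing cells (163 and 32 UMIs, each gene in 1 cell) and PBS-1 non-dividing cells (306 and 407 UMIs). The count was 15 when PBS-1 was left out and 21 for DEX-1 or PBS-2.

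To see what is shared with other dividing cells of the same sort, the change with division was compared between mast cells and ILC2s, gated with the same cycle rule (382 dividing ILC2s). The interaction was called by edgeR for 647 of 10437 genes (6.20%). The log2 change with division was more positive in mast cells in 441 (4.23%) and more negative in 206 (1.97%), whatever its size. The split turned without cells rich in markers of another class (121 and 223) and among thinned cells (60 and 106), and the count was 281, 139, 365 and 289 without DEX-1, DEX-2, PBS-1 and PBS-2 in turn. Replication, mitosis and growth genes are described here.

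Of 53 replication genes 17 had a more positive change in mast cells and 1 a more negative one (median difference 0.94, beside 0.06 over all genes). Lig1, the ligase of lagging strand synthesis, was at 74.2, 75.9, 78.1 and 60.7 CPM in dividing and 6.06 to 13.7 CPM in non-dividing mast cells, and at 101, 111, 92.0 and 108 CPM in dividing and 39.8 to 60.0 CPM in non-dividing ILC2s (difference 1.88 ± 0.23, edgeR adjusted p = 0.000375). Hells, a chromatin remodeller, and Mcm7, a helicase subunit, differed by 2.01 ± 0.27 and 1.70 ± 0.26. For Lig1 the dividing mast cells lay below the dividing ILC2s in every litter, and the non-dividing mast cells lay further below the non-dividing ILC2s. The replication count was 17 and 1 without cells rich in markers of another class, 1 and 1 among thinned cells, 5 and 1 without DEX-1, 4 and 0 without DEX-2 and 11 and 0 without PBS-1.

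Mitosis genes differed little as a list, with the change more positive in mast cells in 2 and more negative in 4 of 55 (median -0.21). Kif23 was at 93.7, 108, 86.2 and 100 CPM in dividing and 31.9 to 48.1 CPM in non-dividing ILC2s, so that it was higher with division there and lower in mast cells (difference -1.73 ± 0.20, edgeR adjusted p = 0.000253). Racgap1, its partner in the central spindle, was at 35.0 to 82.2 CPM in dividing and 0.713 to 2.15 CPM in non-dividing mast cells, against 143 to 169 and 10.6 to 14.4 CPM in ILC2s. Of 31 growth genes 12 had a more positive change in mast cells and 1 a more negative one (median 0.65). Phgdh was at 283, 245, 171 and 255 CPM in dividing and 124 to 193 CPM in non-dividing ILC2s (difference 2.10 ± 0.27, adjusted p = 0.000504), so that the non-dividing mast cells, at 14.3 to 27.9 CPM, stood lowest. The growth count was 9 and 0 without cells rich in markers of another class, 1 and 0 among thinned cells, 2 and 1 without DEX-1, 1 and 1 without DEX-2 and 5 and 1 without PBS-1.

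**Figure D5:**
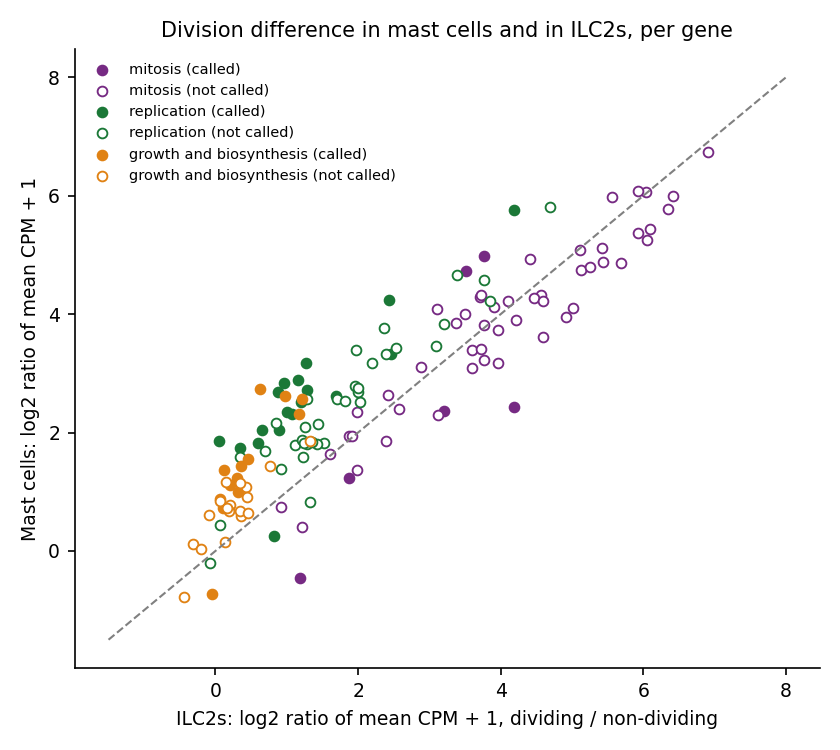
Log2 ratio of mean CPM + 1 in dividing over non-dividing cells, for mast cells (y axis) against ILC2s (x axis), for genes of mitosis, replication and growth. Filled points are genes called for the difference between the cell types and the line marks equal ratios. Kif23 lies below 0 for mast cells and above 0 for ILC2s, and Phgdh and Lig1 lie above the line.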

How the data were processed

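Single-cell RNA and hashtag libraries (10x Genomics 5′) of sorted fetal lung cells were counted by the authors with Cell Ranger (version 7 and mm10 per the submitters' processing notes), who deposited the raw UMI counts of 32285 genes and 4 hashtags over 10648 barcodes. Barcodes with at least 200 genes, at most 5% mitochondrial UMIs and a top hashtag of at least 10 UMIs and 3 times the next were kept (8598 of 10409 passing the first limits). Same-litter doublets share a hashtag and were not removed. The cells and gene lists were chosen with earlier results of these data known.

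UMI counts were summed by litter and cell state. Genes passing filterByExpr were scaled with TMM and tested, two-sided, with the quasi-likelihood test of edgeR 4.0.16 (R 4.3.3), with litter as a block where states of the same litters were compared and Benjamini-Hochberg adjustment at 0.05 over all genes tested. SE was the absolute log2 fold change over the square root of F. Shares were compared with exact permutation tests over litters (scipy 1.17.1). Intervals are 95% exact binomial (Clopper-Pearson), and they and the limit that a count of 0 allows (3 counts) cover counting error only. Litters are single pools, so p-values measure the spread between 4 litters. Named genes were, in each list, up to 6 with the largest absolute change at a mean of 20 CPM or more and members needed to complete a pair or complex, and outside the cell cycle lists the 10 highest and 10 lowest called in the same direction in 4 of 4 litters. With DEX against PBS giving no calls, the smallest p-values at 10 CPM or more were named, beside a fixed set of receptor targets and mast cell genes. Other genes were named after their values were seen. Each test was tried on simulated counts with genes changed by 1 or 2 on the log2 scale. Recovered were 31% and 91% of them for dividing against non-dividing cells, and 13% and 69% for DEX against PBS. The shares were 0% and 20% for the DEX-by-division difference, and 14% and 68% for mast cells against ILC2s. The simulated counts had a fixed dispersion of 0.05 and no differences between litters or states beyond the set changes. Changed genes were drawn from those with a mean of at least 10 counts. The spread in the real sums can be larger, so these shares may not hold for them. Alternatives were DESeq2 1.42.0, other scaling, filters, hashtag and mitochondrial limits, a cycle sum of 10, wider and stricter gates, thinning to 4000 UMIs, matched totals, and leaving out each litter. Positions are from GENCODE M21 (GRCm38, the build of mm10), which held 99.8% of gene rows, and promoter sequences from RefSeq (GRCm38.p6).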

Additional observations from a re-analysis of the deposited data

Results flagged for a closer look

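The edgeR interaction test called 6 genes for a DEX against PBS difference that itself differed between dividing and non-dividing mast cells (Benjamini-Hochberg adjusted over 10431 genes). For 4 of them the difference was negative on the log2 scale, with Pltp at -4.49 (adjusted p = 0.0465), Ramp2 at -4.07 (0.0465), Mest at -3.67 (0.00385) and Sparcl1 at -3.22 (0.0465), each higher in dividing cells of both PBS litters than in those of both DEX litters. Pltp, a phospholipid transfer protein gene, was at 5.30, 8.75, 61.7 and 211 CPM in dividing cells of DEX-1, DEX-2, PBS-1 and PBS-2, and Sparcl1, a matrix protein gene, at 37.1, 30.6, 111 and 214 CPM. Without cells rich in markers of another class, an alternative chosen after seeing the data, none of these 4 was called. There Mest was at -0.02 and Ramp2 at 0.09, so their difference was gone, while Pltp was at -7.06 (adjusted p = 1) and Sparcl1 at -3.87 (adjusted p = 0.866). Endothelial markers in the dividing cells were at 31.8, 42.3, 119 and 240 CPM, and their part in these differences was not tested.

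For Stfa1 (adjusted p = 0.00248) and S100a8 (adjusted p = 0.0137), both genes of neutrophils, no fold is given, since Stfa1 was at 0 in 2 of 4 litters in both states. Stfa1 had 163 UMIs in dividing cells of DEX-2, all in 1 of 75 dividing cells (the 32 UMIs of S100a8 were also in 1 cell), and 306 in non-dividing cells of PBS-1, where 2 of all 1809 non-dividing cells had any. Both calls were lost by DESeq2, without DEX-2 and without PBS-1 (adjusted p = 1 in each), and neutrophil markers exceeded 10 UMIs in 1 dividing and 2 non-dividing cells.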

How the results depend on the processing

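The DEX minus PBS difference in the share of dividing cells was -0.0736 points with the gate on Cma1 and Hdc alone, -0.163 without cells rich in markers of another class, -0.0607 after thinning and between -1.87 (without DEX-2) and 2.39 points (without DEX-1) with a litter left out, and it was positive under the other 5 alternatives. Between dividing and non-dividing cells 2012 genes were called, against 800 after thinning, 4209 with the gate on Cma1 and Hdc alone, 314 among cells of matched totals and 1277 to 1723 with a litter left out (lowest without DEX-2). In DEX against PBS, 0 became 2 with the wider gate, 3 by DESeq2, 107 with no filter on low genes and 0 to 109 with a litter left out. For the DEX-by-division difference, 6 became 3 at a limit of 10% mitochondrial UMIs, 0 without cells with a UMI of another class, 2 with the wider gate, 0 among cells of matched totals, 64 with no filter and 9 to 21 with a litter left out. For mast cells against ILC2s, 647 became 270 without cells with a UMI of another class, 166 after thinning, 344 without cells rich in markers of another class, 1079 with no filter and 139 to 365 with a litter left out. Its split of 441 more positive and 206 more negative changes became 209 and 259 at a cycle sum of 10 and 235 and 288 under the stricter hashtag limit. It became 248 and 446 with at least 10 counts in every sum. The cause of these shifts was not tested, except that matched totals, thinning and left-out litters leave fewer UMIs or samples.

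With the litter block left out of the dividing against non-dividing fit, 2614 genes were called (no replicate block). A replicate block by the number of the mother gave 5 genes in DEX against PBS; the deviations of same-numbered litters correlated at 0.176, and the labels do not say that the number marks a shared batch.

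Of the alternatives of single named genes, 1506 kept direction and side of the threshold, 32 (of 14 comparisons of a gene) had the other sign but passed under neither setting, 122 lost a call, 43 gained one and 2 turned direction with a call, namely Ccl4 to -0.96 without cells with a UMI of another class and Ramp2 to 0.09 without cells rich in markers of another class. Depth limits the comparison of DEX and PBS, since DEX-1 held 9 dividing cells, in which 3 counts are 15.9 CPM.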

Other observations

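Transcripts of granule genes of early myeloid cells were concentrated in few dividing mast cells. Prtn3, proteinase 3, was counted in 9 of 75 dividing and 11 of 1809 non-dividing cells, and 1 cell held 79.6% of the 656 UMIs. Elane, neutrophil elastase, was counted in 2 dividing and 0 non-dividing cells, with 294 of 297 UMIs in 1 cell. Ctsg, cathepsin G, which mast cells also make, was in 21 dividing cells (28.0%) and 169 non-dividing cells (9.34%), and 1 cell held 57.4% of its 272 UMIs. Areg, amphiregulin, was at 0, 349, 8.22 and 185 CPM in dividing cells against 39.6 to 47.5 CPM in non-dividing cells, with a UMI in 16 of 75 cells (21.3%), and ILC2 markers were at 68.9, 655, 107 and 388 CPM in the same cells. These genes were chosen after their values were seen.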
